A study of Homo sapiens with 48 samples.

Results

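The genes described here encode 9 factors of nonsense-mediated mRNA decay (NMD): UPF1, UPF2, UPF3A, UPF3B, SMG1, SMG5, SMG6, SMG8 and SMG9. They were taken by name from the 58721 gene identifiers of the study and not by a cutoff on a measured value, but earlier results of these data were known. All 9 had values in both data sets and passed the filters on low values.

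RNA was measured in DLD-1 cells, an established human colorectal cancer line, of genotype TIR1+, so that every line carried the plant receptor with which auxin triggers proteasomal removal of any protein fused to the AID degron. The parental line had no tagged protein. The CNOT1-AID line carried the degron on CNOT1, the scaffold of the CCR4-NOT deadenylase complex, and the CNOT4-AID line on CNOT4, a ubiquitin ligase that associates with it. A steady-state set of 24 libraries held each of the 3 lines untreated or in 1 mM auxin, collected after 8 h or 24 h, with 2 libraries in each of 12 groups. A triptolide set of 24 libraries held each line after 0, 3, 6 and 12 h of 1 µM triptolide, an inhibitor of transcription initiation, again with 2 libraries in each of 12 groups. All triptolide groups, the parental ones included, had received 1 mM auxin for 2 h first. Whether a tagged line was a single clone is not given in the labels, and protein levels were not analysed here, so that "depletion" below names the treatment with auxin in a tagged line.

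NMD removes mRNAs on which translation ends too early or in an unusual context. The helicase UPF1 binds the terminating ribosome and the mRNA, UPF2 and UPF3B link it to exon junction complexes, and the kinase SMG1, held in a complex with SMG8 and SMG9, phosphorylates it. Phosphorylated UPF1 then recruits SMG6, an endonuclease, and SMG5, an adaptor that leads to deadenylation and decapping, in part through CCR4-NOT. The mRNAs of UPF1, UPF2, UPF3B, SMG1, SMG5 and SMG6 are themselves known as NMD targets, so that cells with weak NMD hold more of them.

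The genes lie apart from each other in the genome. On GRCh38 with GENCODE 29 annotation, UPF1 is at chr19:18831938-18868236 on the plus strand, UPF2 at chr10:11920022-12043170 (minus), UPF3A at chr13:114281584-114305817 (plus) and UPF3B at chrX:119805311-119852998 (minus). SMG1 is at chr16:18804853-18926454 (minus), SMG5 at chr1:156249224-156282825 (minus), SMG6 at chr17:2059839-2303771 (minus), SMG8 at chr17:59209400-59215247 (plus) and SMG9 at chr19:43727992-43754990 (minus). SMG1 has near-identical pseudogene copies, and how reads shared with them were counted is not given in the sources used here, so its values are uncertain to that extent.

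The 3′ UTRs of these mRNAs were searched for the letters of 2 elements whose binding proteins are known to recruit CCR4-NOT. The sites found are shown because SMG8, the member with the largest change below, holds one of them. The searched elements were the AU-rich heptamer TATTTAT, bound by TTP-family proteins, and the Pumilio element TGTANATA, both on the sense strand of the principal transcript only. The AU-rich element was found in SMG8, UPF1 and UPF3A, and the Pumilio element in UPF3A. Among 11751 protein-coding genes tested, 32.4% held the first and 26.8% the second, so neither is rare. The sites are shown 5′ to 3′ with the element in capitals, each within an exonic 3′ UTR.
SMG8, AU-rich, chr17:59215162-59215191, plus strand: tatattgttgaTATTTATtgtaaacgtgac
UPF1, AU-rich, chr19:18867923-18867952, plus strand: gcagggactctTATTTATtcccattgctct
UPF3A, AU-rich, chr13:114305427-114305456, plus strand: cctggtaggaaTATTTATcagagttcacac
UPF3A, Pumilio, chr13:114305665-114305694, plus strand: gatactttattTGTAAATAacttaaaatag

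The SMG8 mRNA differed from the rest of the set in its build. Its principal transcript had 5 exons and a 3′ UTR of 237 bases with 30.4% GC, against a median of 9 exons and a 3′ UTR of 1049 bases with 42.5% GC over the protein-coding genes tested. The other 8 mRNAs had 10 to 63 exons and 3′ UTRs of 856 to 4716 bases. The 3′ UTR of SMG9, the protein that pairs with SMG8, had 3604 bases and held neither element. No principal transcript of a member had an exon junction more than 50 bases after the stop codon, the arrangement best known to trigger NMD. Of the protein-coding genes tested, 0.204% had a principal transcript with it. Other transcripts of these genes were not examined. The values thus cannot show whether the members, or other genes, also have forms with this arrangement, and no conclusion is drawn from them. The values in this paragraph describe the annotated principal transcripts, and no binding was measured.

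The triptolide libraries held 18216427 to 26723618 counts each, and the depth behind the deposited TPM values (transcript levels corrected for length and library size) is unknown. In no group did the 2 libraries hold identical values. The 2 parental libraries at 0 h of triptolide stood apart, with r = 0.938 across genes against 0.98 or more in the other triptolide pairs. In the CNOT4-AID line, replicate 1 at 8 h of auxin had 30.6% of its TPM in protein-coding genes against 39.5% in replicate 2, and replicate 2 at 12 h of triptolide had 3.92% of its counts in ERCC spike-in sequences against 2.25% in replicate 1. Where leaving out one of these libraries ended a call named below, the value without it, or the count of fits that lost the call, is given. Over all 8 omissions in a line the slopes kept their sign, except that of UPF3A in CNOT1-AID cells (-0.027 to 0.0011). Of 11 colon epithelium markers, 10 had a mean of at least 1 TPM (VIL1 had 0.966), against 1 of 5 for blood (CD14), 0 of 4 for fibroblasts and 0 of 3 for endothelium, with HBB and COL1A2 at 0. CNOT1 mRNA fell in CNOT1-AID cells under auxin by 0.52 and 0.82 on the log2 scale at 8 h and 24 h, which does not measure removal of the protein. It was already lower without auxin, at 54.9 and 63.7 TPM at 8 h and 24 h against 86.1 and 93.3 TPM in untreated parental cells. CNOT4 mRNA rose in CNOT1-AID cells under auxin, from 8.21 to 32.6 TPM at 8 h and from 8.14 to 41.6 TPM at 24 h.

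Steady-state levels differed between the members. Averaged over the 24 libraries, UPF1 had 34.9 TPM, followed by SMG5 (29.8), SMG1 (26.9), SMG9 (25.8), UPF3A (18.4), SMG8 (16.4), SMG6 (8.04), UPF2 (7.07) and UPF3B (3.90). The mean of SMG8 was drawn up by 4 libraries, and its median was 10.3 TPM. The order of the first 4 was not the same in every group: SMG5 was above UPF1 in untreated CNOT1-AID cells at 24 h (32.91 against 32.49 TPM). Their ranges over libraries overlapped, 20.8 to 57.1 TPM for UPF1, 14.89 to 34.99 TPM for SMG5, 15.0 to 40.7 for SMG1 and 16.7 to 33.9 for SMG9.

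Auxin alone did not move these genes. In parental cells 0 of 9 members passed the test at 8 h or at 24 h, where 0.0201% (0.0134% higher, 0.0067% lower) and 0% of the 14921 genes tested did (limma, Benjamini-Hochberg adjusted p under 0.05). None had an unadjusted p under 0.05 at either time. The parental log2 changes of the members ran from -0.11 to 0.20 at 8 h and from -0.19 to 0.0060 at 24 h.

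**Figure D1:**
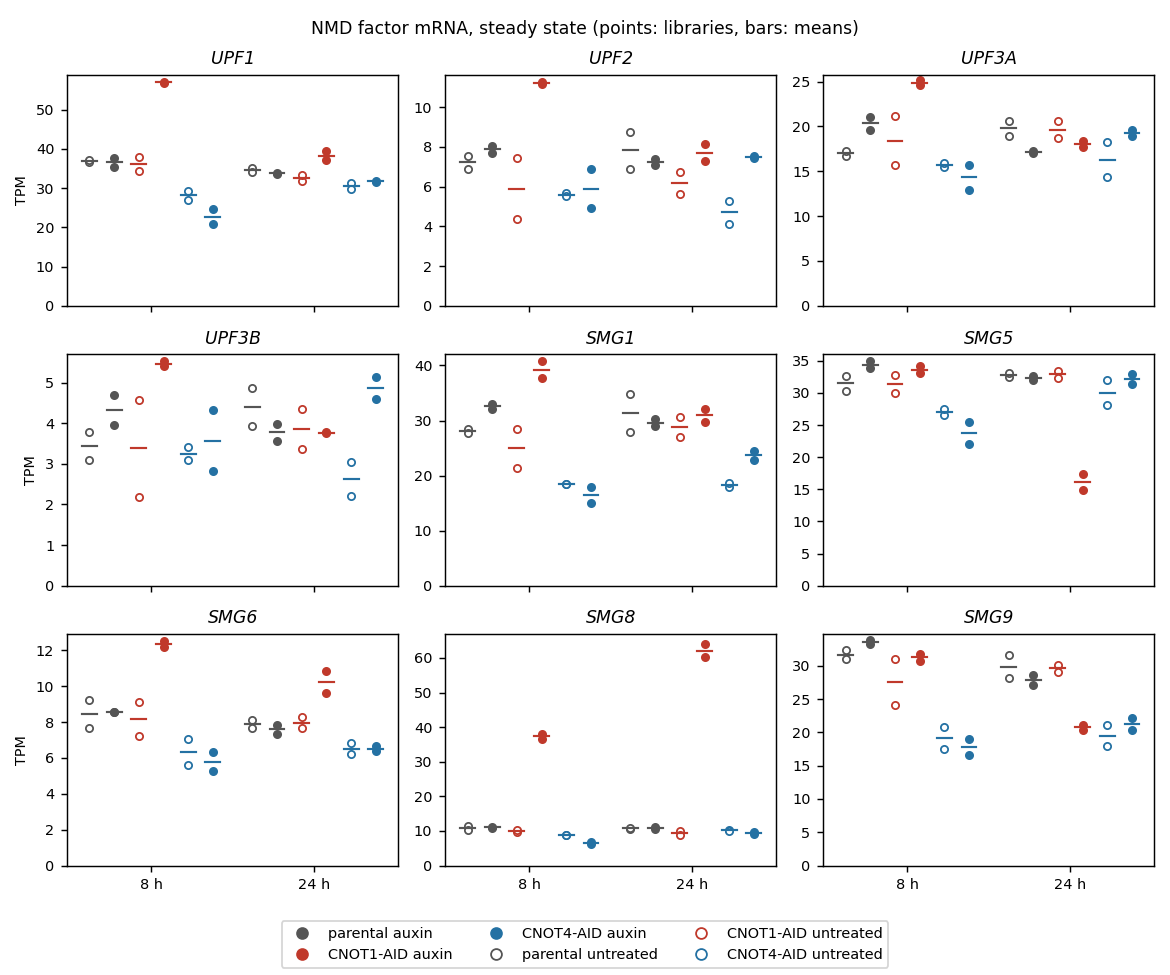
Deposited TPM of each NMD factor in the 24 steady-state libraries, with 1 point per library (filled for auxin, open for untreated), bars at group means, the groups of 8 h and 24 h along the x axis and colours for the 3 lines. The 4 CNOT1-AID auxin libraries of SMG8 lie between 36.6 and 64.0 TPM, all above every other library, and the 2 CNOT1-AID libraries at 24 h of auxin are the lowest of SMG5, at 14.9 and 17.4 TPM.

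Depletion of CNOT1 changed the set in different ways at the 2 times. At 8 h, 5 of 9 members rose and 1 fell, where 62.8% of all genes tested passed (33.1% higher, 29.8% lower). At 24 h, 1 rose and 3 fell, where 71.5% passed (36.7% higher, 34.8% lower). The median log2 change of the 9 was 0.36 at 8 h and -0.15 at 24 h, against 0 and -0.0064 over all genes tested. The counts, and the sign of the members' median at 24 h, depended on scaling. With ERCC spike-in scaling, which moved the median of all genes to 0.41 at 8 h and 0.31 at 24 h, 9 rose and 0 fell at 8 h and 3 rose and 2 fell at 24 h, and the median of the 9 was 0.82 and 0.22. With no scaling, where that median was 0.26 and 0.21, the counts were 7 and 0 at 8 h and 3 and 2 at 24 h, with medians of 0.65 and 0.10. The share of all genes called with these 2 scalings is not given here, so that their counts cannot be set against it. Changes below are relative to the trimmed mean of genes (TMM) unless stated, and in bulk RNA a smaller share of cells and less RNA per cell cannot be told apart.

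UPF1, the helicase at the centre of the pathway, was measured at 34.3 and 38.0 TPM in untreated CNOT1-AID cells at 8 h and at 57.1 and 56.8 TPM with auxin. The groups did not overlap, and the log2 change was 0.36 ± 0.06 (SE, n = 2 against 2; limma adjusted p = 0.000108). At 24 h it was at 31.8 and 33.2 TPM untreated and 37.0 and 39.4 TPM with auxin. These TPM did not overlap either, but the scaled log2 change was -0.028 ± 0.063 (adjusted p = 0.706), and it was 0.35 with ERCC scaling (adjusted p = 0.00782) and 0.23 with none (adjusted p = 0.0160). The response of UPF1 was smaller at 24 h than at 8 h by a tested difference, which fell by 0.38 (adjusted p = 0.00307).

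UPF2, which bridges UPF1 and UPF3B, stood at 4.36 and 7.44 TPM untreated and at 11.2 and 11.3 TPM after 8 h of auxin in CNOT1-AID cells. The untreated libraries differed from each other more than the auxin libraries did, yet both lay below them. The log2 change was 0.64 ± 0.14 (SE; adjusted p = 0.000839) and came to 0.37 without untreated replicate 1 (adjusted p = 0.0230). At 24 h UPF2 was at 6.72 and 5.63 TPM untreated and 8.14 and 7.29 TPM with auxin, a log2 change of 0.058 ± 0.14 (adjusted p = 0.729).

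The paralogues UPF3A and UPF3B did not pass the test at 8 h. UPF3A, the form with weaker NMD activity in most assays, had a log2 change of 0.15 (adjusted p = 0.161). UPF3B, which binds the exon junction complex, was at 2.18 and 4.58 TPM untreated and 5.53 and 5.40 TPM with auxin, a log2 change of 0.43 ± 0.19 (adjusted p = 0.0654). The untreated pair decided both: without its replicate 2 both were called, UPF3A at 0.27 (adjusted p = 0.0299) and UPF3B at 0.81 (adjusted p = 0.000899), and without its replicate 1 they were 0.033 and 0.048. Both also passed with ERCC scaling, at 0.61 (adjusted p = 0.00125) for UPF3A and 0.84 (adjusted p = 0.00569) for UPF3B. At 24 h UPF3A, at 20.6 and 18.7 TPM untreated and 18.4 and 17.7 TPM with auxin, fell by 0.37 on the log2 scale (SE 0.09, adjusted p = 0.00146), a call that was lost with ERCC scaling (-0.00051, adjusted p = 1) and with none (-0.12, adjusted p = 0.426). UPF3B at 24 h had a log2 change of -0.25 (adjusted p = 0.265).

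The kinase SMG1 was at 21.4 and 28.5 TPM untreated and 40.7 and 37.7 TPM after 8 h of auxin in CNOT1-AID cells, a rise of 0.36 ± 0.08 (SE; adjusted p = 0.000789). At 24 h it stood at 30.6 and 27.1 TPM against 32.1 and 29.8 TPM, so that the groups overlapped, and the log2 change was -0.15 (adjusted p = 0.0938). The difference between the times passed the test at -0.52 (adjusted p = 0.00195).

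SMG8, the SMG1 subunit that restrains the kinase, was the member with the largest change. Its level was 9.70 and 10.3 TPM in untreated CNOT1-AID cells at 8 h, and 38.1 and 36.6 TPM with auxin. At 24 h the untreated libraries had 10.0 and 8.96 TPM and the auxin libraries 64.0 and 60.2 TPM. The groups were far from overlapping at either time. The scaled log2 change was 1.56 ± 0.07 at 8 h (2.95-fold, adjusted p = 7.09e-12) and 2.39 ± 0.07 at 24 h (5.23-fold, adjusted p = 2.52e-14). Only 454 of the 14921 genes tested had a larger value at 8 h and 195 at 24 h. With ERCC scaling the log2 change was 2.02 at 8 h and 2.76 at 24 h, and with none 1.85 and 2.65, so that its direction and call held with every scaling run.

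Ordered by group mean, SMG8 stood at 62.1 ± 2.64 TPM (SD, n = 2) in CNOT1-AID cells at 24 h of auxin and at 37.3 ± 1.06 at 8 h. The other 10 groups lay between 6.51 ± 0.36 TPM, in CNOT4-AID cells at 8 h of auxin, and 11.1 ± 0.23, in parental cells at 8 h of auxin. The 4 parental groups, from 10.7 to 11.1 TPM, did not differ beyond their spread, nor did untreated CNOT1-AID cells at 8 h (9.98 ± 0.39) and at 24 h (9.50 ± 0.76).

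SMG9, which binds SMG8 in the same kinase complex, did not follow it. At 8 h its log2 change in CNOT1-AID cells was -0.10 (adjusted p = 0.350), from 24.2 and 31.0 TPM to 31.8 and 30.8 TPM, which turned to 0.36 with ERCC scaling (adjusted p = 0.0356). At 24 h SMG9 was at 30.1 and 29.1 TPM untreated and 21.2 and 20.3 TPM with auxin, a log2 change of -0.76 ± 0.09 (adjusted p = 1.10e-06) that came to -0.39 with ERCC scaling (adjusted p = 0.0230). SMG1, SMG8 and SMG9 form 1 complex as proteins, and at 24 h their mRNAs had log2 changes of -0.15, 2.39 and -0.76.

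SMG5, the adaptor that brings deadenylation and decapping to phosphorylated UPF1, fell the most. It was at 33.4 and 32.4 TPM in untreated CNOT1-AID cells at 24 h and at 17.4 and 14.9 TPM with auxin. The log2 change was -1.26 ± 0.06 (2.40-fold lower, adjusted p = 2.08e-11), and it kept its direction and call with every scaling run. At 8 h the deposited TPM were higher with auxin, 33.02 and 34.21 against 29.97 and 32.72, while the scaled log2 change was -0.19 ± 0.06 (adjusted p = 0.0159). This call rested on scaling, since the change was 0.27 with ERCC scaling (adjusted p = 0.0431) and 0.10 with none (adjusted p = 0.347), and it was lost without untreated replicate 1 (adjusted p = 0.0948) or without auxin replicate 1 (adjusted p = 0.102).

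SMG6, the endonuclease, was at 7.25 and 9.15 TPM untreated and 12.5 and 12.2 TPM after 8 h of auxin in CNOT1-AID cells. It rose by 0.29 ± 0.09 (adjusted p = 0.0128), a call lost without untreated replicate 1 (0.22, adjusted p = 0.106) or without auxin replicate 1 (0.28, adjusted p = 0.0595). At 24 h, from 8.29 and 7.65 TPM to 10.8 and 9.62 TPM, its log2 change was 0.091 (adjusted p = 0.400), and it was called higher with ERCC scaling (0.45, adjusted p = 0.0163) and with none (0.34, adjusted p = 0.0264). The 2 effectors of NMD, SMG5 and SMG6, thus moved apart at 24 h, with changes of -1.26 and 0.091.

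**Figure D2:**
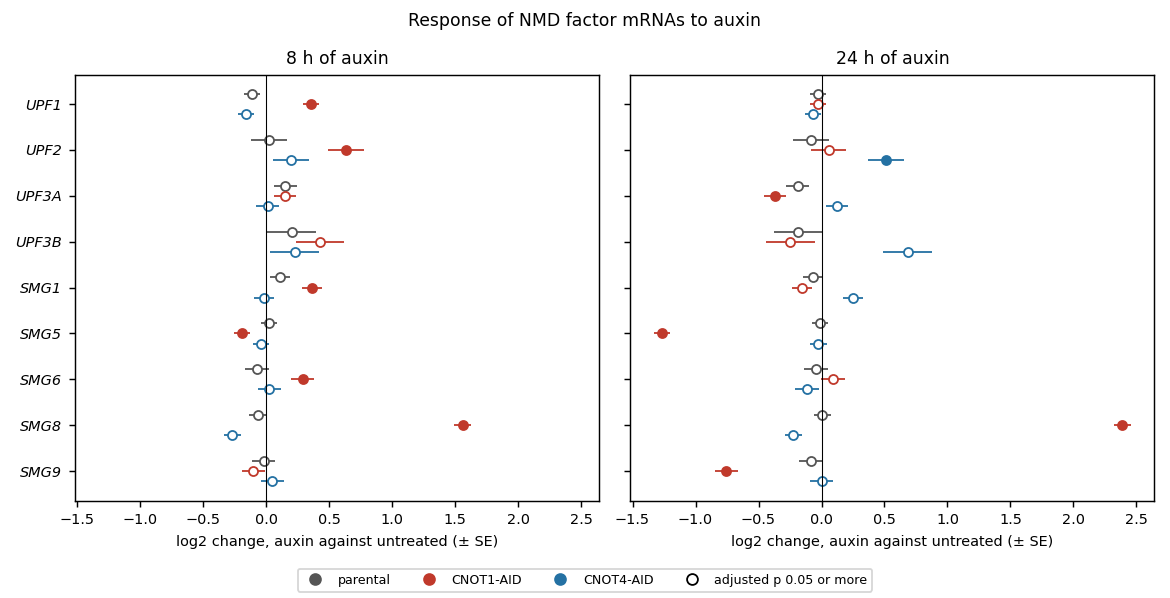
Log2 change of each NMD factor with auxin against untreated (x axis, ± SE of the limma fit, TMM scaling) at 8 h and 24 h in parental, CNOT1-AID and CNOT4-AID cells, with filled points for adjusted p under 0.05. SMG8 in CNOT1-AID cells lies at 1.56 and 2.39, SMG5 at -1.26 and SMG9 at -0.76 at 24 h, and the small SMG5 value of -0.19 at 8 h turns to 0.27 with ERCC scaling.

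The responses of CNOT1-AID cells were set against those of parental cells in the same fit. At 8 h the response was higher for 4 of 9 members (UPF1, UPF2, SMG6 and SMG8), where 50.3% of all genes tested differed (27% higher, 23.2% lower). At 24 h it was higher for SMG8, by 2.38, and lower for SMG5, by -1.25, and SMG9, by -0.67, where 61.9% of genes differed (32.3% higher, 29.6% lower). With ERCC scaling the SMG9 difference was -0.27 and no longer called (adjusted p = 0.264), and the SMG6 difference at 8 h (0.36, adjusted p = 0.0316) was lost in 6 of 8 fits that left out a library (0.27 to 0.46, adjusted p up to 0.145). That of UPF2 was lost in 1 of 8, without untreated CNOT1-AID replicate 1 (0.35, adjusted p = 0.1003). From 8 h to 24 h in CNOT1-AID cells the response of SMG8 grew by a further 0.83 (adjusted p = 8.42e-06), where 36.3% of genes changed between the times (17.4% higher, 18.9% lower). The responses of UPF1, UPF2, UPF3A, SMG1, SMG5 and SMG9 were lower at 24 h than at 8 h, and for UPF2 and SMG1 this was lost with ERCC scaling (adjusted p = 0.0997 and 0.0512). The UPF2 difference (-0.58) was also lost in 6 of 8 fits that left out a library (-0.85 to -0.31, adjusted p up to 0.170). In parental and CNOT4-AID cells 0 of 9 responses differed between the times, where 0.0067% (all lower) and 0.0201% (0.0067% higher, 0.0134% lower) of genes did, and 1 member in each line had an unadjusted p under 0.05. Of the 6 members known as NMD targets, 4 rose and 1 fell at 8 h of CNOT1 depletion, where 33.1% of all genes rose and 29.8% fell, and 0 rose and 1 fell at 24 h, where 36.7% rose and 34.8% fell. The SMG6 rise and the SMG5 fall at 8 h are the calls that were lost above on leaving out a library.

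Depletion of CNOT4 had small effects on the set. At 8 h 0 of 9 members passed the test, where 0.288% of genes did (0.241% higher, 0.0469% lower), and 2 had an unadjusted p under 0.05. SMG8 was at 8.87 and 8.69 TPM untreated and 6.25 and 6.76 TPM with auxin, a log2 change of -0.27 (adjusted p = 0.120). Without auxin replicate 1, the library low in protein-coding TPM, it was -0.36 (adjusted p = 0.0437), the only member called in that fit.

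At 24 h of CNOT4 depletion UPF2 rose, 1 of 9 members, where 4.51% of genes changed (2.09% higher, 2.42% lower), and 4 members had an unadjusted p under 0.05. UPF2 went from 4.13 and 5.28 TPM to 7.42 and 7.55 TPM, a log2 change of 0.51 ± 0.14 (adjusted p = 0.0491). The call was lost under most alternatives, for example with ERCC scaling (0.71, adjusted p = 0.0548) or without untreated replicate 1 (0.35, adjusted p = 0.366). UPF3B, from 2.21 and 3.05 TPM to 5.14 and 4.6 TPM, had a log2 change of 0.68 (adjusted p = 0.0545), and SMG8, from 10.3 and 9.97 TPM to 9.73 and 9.06 TPM, one of -0.22 (adjusted p = 0.0671). The response differed from that of parental cells for 0 of 9 members at 8 h and at 24 h, where 0.0134% (0.0067% higher, 0.0067% lower) and 0.067% (0.0402% higher, 0.0268% lower) of genes differed. At 24 h 5 members had an unadjusted p under 0.05 for this difference, and 0 at 8 h.

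Set against each other, the 2 depletions differed at 24 h for 6 of 9 members, where 62.2% of genes differed (32% higher, 30.1% lower). SMG8 responded higher in CNOT1-AID cells, by 2.61 (adjusted p = 2.20e-12). SMG5, SMG9, UPF3B, SMG1 and UPF3A responded lower, by -1.24, -0.76, -0.93, -0.40 and -0.49, and for UPF3B, SMG1 and UPF3A this was no longer called with ERCC scaling. At 8 h they differed for UPF1 (0.51), SMG1 (0.38) and SMG8 (1.83), where 51.6% of genes differed (27.6% higher, 24% lower). The SMG1 call at 8 h was lost in 1 of 8 fits that left out a library (0.27 to 0.48).

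Without auxin the tagged lines were close to parental cells in most members. In untreated CNOT1-AID cells 0 of 9 differed, where 20.7% of genes did (10.1% higher, 10.6% lower), and 2 had an unadjusted p under 0.05. UPF2 was nearest to the threshold at -0.28 (adjusted p = 0.0530), and it passed without untreated CNOT1-AID replicate 2 of 8 h (-0.42, adjusted p = 0.00185). In untreated CNOT4-AID cells SMG1 and SMG9 were lower, where 20.2% of genes differed (10.5% higher, 9.74% lower). SMG1 was at 17.8 to 18.6 TPM in the 4 untreated CNOT4-AID libraries and at 27.8 to 34.9 TPM in the 4 parental ones, a log2 difference of -0.42 ± 0.06 (adjusted p = 6.39e-05). SMG9 was at 17.5 to 21.1 TPM against 28.2 to 32.4 TPM, a difference of -0.40 ± 0.06 (adjusted p = 0.000377). Neither range overlapped. Both differences were called with every scaling run, and with no scaling 7 members were lower. The share of all genes called with no scaling is not given here. The untreated CNOT4-AID libraries also held 20% to 27.5% of their TPM in small nuclear RNA, against 16.4% to 19.3% in the parental ones. The part of this in the result was not tested. Neither SMG1 nor SMG9 was called lower in CNOT4-AID cells at 0 h of triptolide, where all lines had received auxin (values below).

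Decay was followed after triptolide, with counts scaled to the ERCC sequences, so that a slope gives loss against a fixed amount of added RNA rather than against other mRNAs. Half-lives below come from 1 straight line in log2 over 0 to 12 h. Such a line misses a loss that is faster early than late, and the ± 1 SE ranges do not cover this. Any half-life above 12 h lies beyond the last time sampled and extends the line past the data. All triptolide libraries had auxin, so that a difference in slope is one between lines, and the line and the depletion cannot be told apart in it. In parental cells 5 of 9 members declined, where 49% of the 16806 genes tested changed (0.744% higher, 48.3% lower; edgeR quasi-likelihood test, adjusted p under 0.05). SMG8 was lost fastest and SMG9 next. In CNOT1-AID cells 4 of 9 declined, where 11% of genes changed (0.0655% higher, 10.9% lower), and SMG8 was not among them. In CNOT4-AID cells 9 of 9 declined, where 85.8% of genes changed (0.143% higher, 85.6% lower). Without the CNOT4-AID library of 12 h replicate 2 the count was 8 of 9, with UPF3B lost.

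SMG8 had 830 and 893 spike-scaled counts in parental cells at 0 h, 306 and 264 at 3 h, 78.7 and 120.5 at 6 h and 33.0 and 22.2 at 12 h. In CNOT1-AID cells it had 1170 and 1181, then 1025 and 1311, then 817 and 1030, and at 12 h 974 and 821. In CNOT4-AID cells it had 988 and 1003, then 202 and 149, then 35.5 and 42.4, and at 12 h 13.1 and 11.8. At 12 h 3.20% of the 0 h level was thus left in parental cells, 76.3% in CNOT1-AID cells and 1.25% in CNOT4-AID cells, and at 3, 6 and 12 h every CNOT1-AID library lay above every library of the other lines. The last points in parental and CNOT4-AID cells rested on 20 to 36 counts per library.

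The slope of SMG8 was -0.419 ± 0.036 log2 units per hour in parental cells, a half-life of 2.39 h (2.20 to 2.61 h at ± 1 SE). In CNOT1-AID cells it was -0.036 ± 0.031 (adjusted p = 0.600), and the half-life of 27.5 h that it would give lies beyond the last time sampled. In CNOT4-AID cells it was -0.544 ± 0.037, a half-life of 1.84 h (1.72 to 1.97 h). The loss there was faster early than this line, with 17.7% left at 3 h, 3.92% at 6 h and 1.25% at 12 h. The CNOT1-AID slope differed from the parental one by 0.383 ± 0.046 (edgeR adjusted p = 2.47e-07). SMG8 was the only member with a called difference, where 19.8% of genes differed (18.8% higher, that is, slower, and 0.94% lower), and 288 of 16806 genes had a larger difference. The difference was 0.37 without parental 0 h replicate 1, 0.37 without replicate 2, 0.33 without the 0 h time and 0.36 with TMM scaling, each still called.

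**Figure D3:**
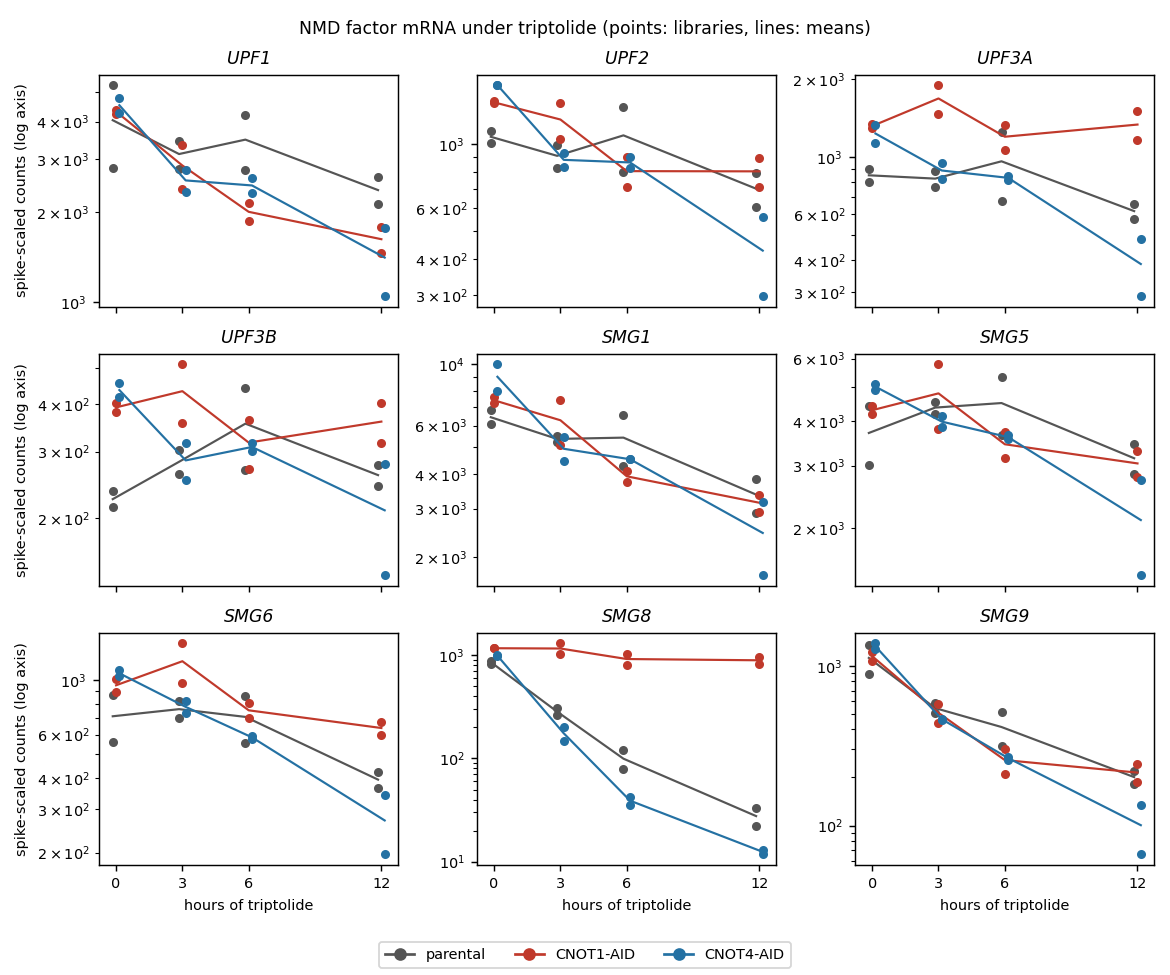
Spike-scaled counts of each NMD factor by hours of triptolide (y axis, log scale), with 1 point per library and lines through the means of parental, CNOT1-AID and CNOT4-AID cells. At 12 h SMG8 was at 3.20%, 76.3% and 1.25% of its 0 h mean in the 3 lines, and SMG9 at 17.95%, 18.7% and 7.60%.

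SMG9 decayed in all 3 lines. In parental cells it had 1357 and 883 spike-scaled counts at 0 h, 582 and 506 at 3 h, 313 and 515 at 6 h and 219 and 183 at 12 h. In CNOT1-AID cells the values were 1076 and 1222, then 438 and 578, then 211 and 304, then 242 and 187. Both series dropped below 50% of the start by 3 h (48.5% and 44.2% on average). The half-life of the straight-line fit was 5.05 h (4.37 to 5.98 h at ± 1 SE) in parental and 5.09 h (4.43 to 5.99 h) in CNOT1-AID cells. Both lie beyond 3 h, so that the line missed the faster early loss. The slopes differed by 0.0015 ± 0.040 log2 per hour (adjusted p = 0.998). In CNOT4-AID cells the fitted half-life was 3.32 h (3.00 to 3.70 h), with 35% left at 3 h. SMG8 and SMG9 were thus the 2 fastest of the set in parental cells, and the slope of SMG8 alone of the 2 differed between CNOT1-AID and parental cells.

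UPF1 had a called decline in every line, with half-lives of 17.3 h in parental, 8.73 h in CNOT1-AID and 7.67 h in CNOT4-AID cells. In parental cells it had 5291 and 2793 spike-scaled counts at 0 h and 2606 and 2126 at 12 h. The parental slope of -0.058 (adjusted p = 0.0446) became -0.031 without 0 h replicate 1 (adjusted p = 0.378), and the call was lost in 5 of 8 fits that left out a library. In CNOT1-AID cells UPF1 went from 4255 and 4384 to 1786 and 1462. The 0 h and 12 h values did not overlap in either of these lines. With ERCC scaling the CNOT1-AID slope differed from the parental one by -0.057, which was not called.

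UPF2 declined in CNOT1-AID cells with a half-life of 14.4 h (slope -0.070, adjusted p = 0.0422), a call lost in 6 of 8 fits that left out a library (adjusted p up to 0.223), and in CNOT4-AID cells with one of 6.72 h, and its parental slope of -0.045 did not pass (adjusted p = 0.130). UPF3A and UPF3B declined in CNOT4-AID cells, with half-lives of 7.39 h and 12.6 h. The UPF3B slope there, -0.079, came to -0.050 without 12 h replicate 2 and lost its call (adjusted p = 0.108), and it was -0.120 without replicate 1. Their parental slopes were -0.036 (adjusted p = 0.233) and 0.015 (adjusted p = 0.690), the differences of the CNOT4-AID slopes from these did not pass (adjusted p = 0.0746 and 0.0851), and in CNOT1-AID cells they kept 101% and 91.7% of the 0 h level at 12 h.

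SMG1 declined in all 3 lines, with half-lives of 13.4 h, 9.30 h and 6.79 h in parental, CNOT1-AID and CNOT4-AID cells. SMG6 declined in parental cells (13.2 h) and in CNOT4-AID cells (6.06 h), and its CNOT1-AID slope was -0.063 (adjusted p = 0.0908). The parental calls of SMG1 and SMG6 were lost without 12 h replicate 2, and that of SMG6 was lost in 2 of 8 fits that left out a library (slopes of -0.099 to -0.056). SMG5 was the most persistent of the abundant members, with 84.9% of its 0 h level left at 12 h in parental cells and a slope of -0.025 (adjusted p = 0.424). Its CNOT1-AID slope of -0.051 did not pass (adjusted p = 0.184), and in CNOT4-AID cells its half-life was 9.81 h. For SMG5, the mRNA with the largest fall in steady-state level under CNOT1 depletion, the slope differed from the parental one by -0.026 ± 0.033 (adjusted p = 0.784), and with TMM scaling by -0.065 (adjusted p = 0.000136).

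The CNOT4-AID slopes differed from the parental ones by -0.073 to -0.125 log2 per hour, and 0 of 9 differences passed, where 0.845% of genes did, all lower. The adjusted p ran from 0.0688 (UPF2) to 0.1004 (UPF1), all 9 unadjusted p were under 0.05, and DESeq2 called 2, UPF2 and UPF3A. The median slope difference of the 9 was -0.094 and that of all genes tested -0.075. Without replicate 1 of the CNOT4-AID 12 h libraries all 9 differences were called, and without replicate 2, the library with 3.92% ERCC counts, 0 were.

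Between the 2 depleted lines, 5 of 9 slopes were less steep in CNOT1-AID cells, where 51.7% of genes differed (51.5% higher, 0.202% lower). The differences were 0.51 for SMG8, 0.12 for UPF3A, 0.11 for SMG9, 0.10 for SMG6 and 0.079 for UPF2. Without the 12 h time 1 of these calls was left, that of SMG8. Leaving out 1 library lost the UPF2 call in 8 of 16 fits (0.051 to 0.115), the SMG9 call in 5 of 16 (0.070 to 0.16) and the SMG6 call in 1 of 16 (0.073 to 0.13). With TMM scaling, which asks whether an mRNA was lost faster than the trimmed mean of mRNAs, SMG8 alone was still higher, at 0.41 (adjusted p = 1.78e-06), and 4 members were lower. The same scaling called UPF1, UPF3B, UPF2, SMG1 and SMG5 lower in CNOT1-AID than in parental cells, by -0.099, -0.071, -0.064, -0.071 and -0.065. The share of all genes called with TMM scaling of the triptolide counts is not given here.

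**Figure D4:**
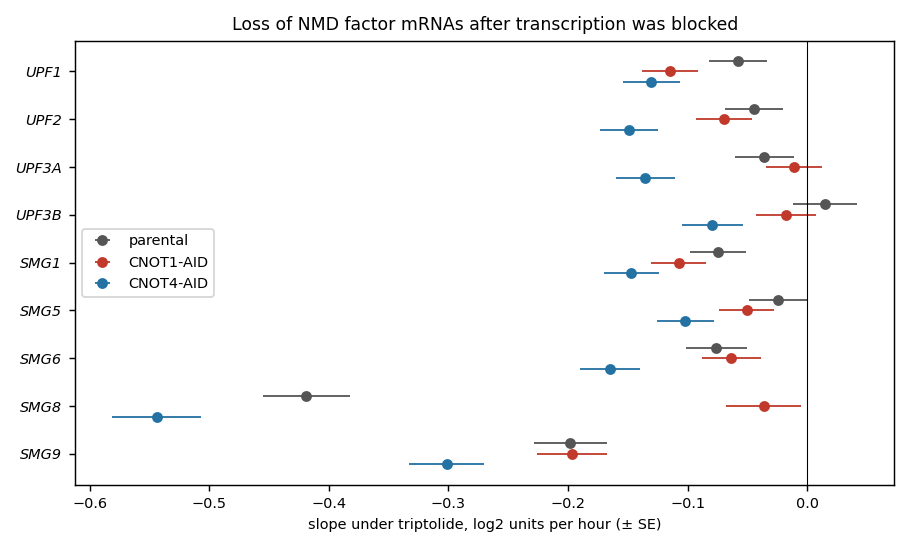
Slope of each NMD factor under triptolide in log2 units per hour (x axis) in parental, CNOT1-AID and CNOT4-AID cells, with ERCC scaling, as points with bars of ± 1 SE of the edgeR fit. SMG8 lies at -0.42, -0.036 and -0.54 and SMG9 at -0.20, -0.20 and -0.30, while with TMM scaling the parental slopes of UPF1, UPF2, UPF3A and SMG5 and the CNOT4-AID slopes of UPF1, UPF3A, UPF3B and SMG5 turn positive.

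At 0 h of triptolide, after 2 h of auxin in every line, the lines were compared with each other, and with no library from before auxin this measures a difference between lines and no change with time. UPF3B (0.47, adjusted p = 0.0124) and UPF3A (0.31, adjusted p = 0.0258) were higher in CNOT1-AID than in parental cells, 2 of 9 members, where 14.5% of genes differed (9.65% higher, 4.84% lower). In CNOT4-AID cells UPF3B (0.67, adjusted p = 0.000872) and UPF2 (0.32, adjusted p = 0.0220) were higher, where 12% differed (7.88% higher, 4.09% lower). All 4 calls were lost with ERCC scaling (UPF3B 0.81, adjusted p = 0.116, and UPF3A 0.63, adjusted p = 0.215, in CNOT1-AID cells, and UPF3B 0.96, adjusted p = 0.0594, and UPF2 0.60, adjusted p = 0.326, in CNOT4-AID cells). Both CNOT1-AID calls were also lost in 3 of 4 fits that left out a library, with adjusted p of up to 0.103 for UPF3B (0.28 without parental replicate 1) and 0.148 for UPF3A (0.30 without CNOT1-AID replicate 1). UPF2 in CNOT4-AID cells was lost in 2 of 4, without parental replicate 1 (0.23, adjusted p = 0.0754) and without CNOT4-AID replicate 2 (0.29, adjusted p = 0.119), and UPF3B there was lost in 0 of 4 (0.46 to 0.87). SMG8 differed by 0.12 (adjusted p = 0.670) in CNOT1-AID cells at this point. SMG1 and SMG9, lower in untreated CNOT4-AID cells of the steady-state set, were not called lower in that line here. SMG1 differed from parental cells by 0.21 (adjusted p = 0.146), and by 0.074 to 0.33 on leaving out a library. The SMG9 difference ran from -0.20 to 0.15 on leaving out a library. The 2 sets differ in auxin treatment, and the reason for their different results was not tested.

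Other NMD factors were taken from a list of 15 genes. In CNOT1-AID cells 9 rose and 4 fell at 8 h and 10 rose and 3 fell at 24 h, where 33.1% and 36.7% of all genes rose and 29.8% and 34.8% fell, with median log2 changes of 0.42 and 0.64 against 0 and -0.0064 over all genes. With ERCC scaling, which also raised the median of all genes, the counts were 12 and 0 at 8 h and 12 and 0 at 24 h. The share of all genes called with ERCC scaling is not given here, so that these counts cannot be set against it. The 4 with the largest change at 24 h were PNRC2, a decapping adaptor that binds UPF1, from 58.4 ± 3.01 to 212 ± 19.3 TPM (log2 change 1.59), the release factor GSPT2 (1.54), and RBM8A (1.05) and PYM1 (1.03), a core subunit and a recycling factor of the exon junction complex. GSPT2 is a near-copy of GSPT1, which fell by 0.58, and reads shared between them could be split. GSPT1 was picked out after its values were seen. In parental cells 0 of the 15 changed at either time, where 0.0201% of all genes did at 8 h and 0% at 24 h. In CNOT4-AID cells 0 changed at 8 h, where 0.288% of all genes did. At 24 h 1 changed there, a fall, where 2.09% of all genes rose and 2.42% fell.

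Among transcripts known to be sensitive to NMD, more were called lower than higher. Of 19 such transcripts measured in CNOT1-AID cells, 5 rose and 10 fell at 8 h and 3 rose and 15 fell at 24 h, with medians of -0.26 and -0.74, where 33.1% and 36.7% of all genes rose and 29.8% and 34.8% fell. The 8 h median turned to 0.19 with ERCC scaling and to 0.028 with none. At 8 h this order held with TMM scaling and not with ERCC scaling, with which 8 rose and 4 fell at 8 h, and 4 rose and 10 fell at 24 h. ERCC scaling also raised the median of all genes. As the share of all genes called with it is not given here, its counts cannot be set against that share. BAG1, a co-chaperone, went from 28.9 and 26.4 TPM to 8.07 and 8.06 TPM at 24 h, a log2 change of -1.96. ASNS, asparagine synthetase, changed by -1.24 and the kinase MAP3K14 by -1.21 (log2), whereas DDIT3, a stress transcription factor, rose from 11.2 and 9.88 TPM to 47.5 and 47.2 TPM, by 1.86. Several of these transcripts, DDIT3 and ASNS among them, are also known targets of the integrated stress response. In CNOT4-AID cells 0 rose and 1 fell at 8 h, where 0.241% of all genes rose and 0.0469% fell. At 24 h 3 rose and 3 fell, where 2.09% rose and 2.42% fell. Set against the parental response, 0 of the 19 differed at either time, where 0.0134% of all genes did at 8 h and 0.067% at 24 h.

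**Figure D5:**
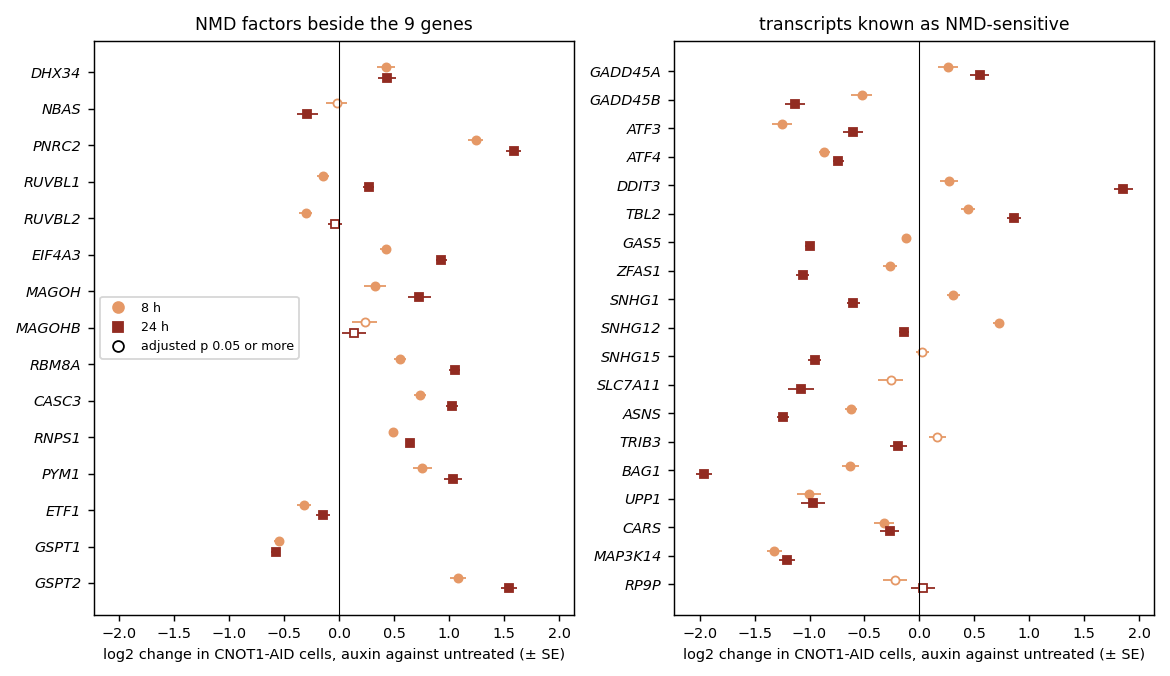
Log2 change with auxin in CNOT1-AID cells (x axis, ± SE of the limma fit, TMM scaling) at 8 h and 24 h for 15 other NMD factors and 19 transcripts known as NMD-sensitive, with filled points for adjusted p under 0.05. The medians at 24 h are 0.64 and -0.74, and 1.02 and -0.36 with ERCC scaling.

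The genes most like SMG8 over the 12 steady-state group means were NELFA (Pearson r = 0.997 of log2 TPM), TRMT12 (0.997) and RSBN1 (0.997), among 8857 protein-coding genes with a mean of at least 5 TPM. Those most like SMG5 were UBAC1 (0.985), PPP6R2 (0.979) and PDXP (0.978). The 12 means share lines and libraries, so that these values describe likeness only.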

How the data were processed

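The members, lists and tests were chosen with earlier results of these data known. Stranded libraries of total RNA without ribosomal RNA with added ERCC spike-in RNA were sequenced, per the labels' protocols. The build hg38 (GRCh38) and the tools STAR 2.5.1b, RSEM, featureCounts, SAMtools and DESeq2 are named, per the submitters' processing notes, while the tool behind either table is not given in the sources used here. In the steady-state table the deposited values are TPM, with columns summing to 999998.92 to 1000000.81, and the deposited triptolide values are raw counts. Every column was mapped to a sample by its label, and all 58721 identifiers were found in GENCODE 29.

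TPM were scaled with TMM, and log2(TPM + 0.5) was fitted with limma 3.58.1 (trend, robust) for 14921 genes with at least 1 TPM in 2 libraries, with 12 group means and 12 residual degrees of freedom. Fold changes are on the log2(value + 0.5) scale, which understates those of low genes. edgeR 4.0.16 with robust quasi-likelihood fits was applied to the counts of 16806 genes: slopes per line on hours with ERCC scaling (56 of 92 sequences with a mean of at least 10 counts, 18 residual degrees of freedom), and lines at 0 h with TMM scaling. Benjamini-Hochberg adjustment ran over all genes tested in each contrast, threshold 0.05. The p-values measure the spread between 2 libraries a group, and whether those came from separate cultures is not given in the labels, so that the spread may be technical. All 9 members are named in each comparison. From each other list up to 4 genes are named: those past the threshold at 24 h of auxin in CNOT1-AID cells with a mean of at least 5 TPM and both auxin libraries beyond both untreated ones, by size of change. Both fits were tested on simulated data. Alternatives were other scalings, pseudocounts, filters, empirical Bayes settings, DESeq2 1.42.0, fewer times, a replicate block and leaving out each library. Transcripts are the principal ones of GENCODE 29. One gene of the list of other NMD factors is not reported here and is in none of its counts.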

Additional observations from a re-analysis of the deposited data

Results flagged for a closer look

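The results here drew a closer look because the response of a member differed, by a test of the difference itself, between lines or between times. Values are log2 differences with adjusted p from limma for auxin responses and from edgeR for slopes, and no explanation was tested.

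SMG8 differed in every such comparison of the CNOT1-AID line. Its response in CNOT1-AID cells exceeded the parental one by 1.63 at 8 h (adjusted p = 1.00e-09) and by 2.38 at 24 h (5.54e-12). It exceeded the CNOT4-AID one by 1.83 at 8 h (2.94e-10) and by 2.61 at 24 h (2.20e-12). It was larger at 24 h than at 8 h by 0.83 (8.42e-06). Its CNOT1-AID slope was less steep than the parental one by 0.38 per hour (2.47e-07) and than the CNOT4-AID one by 0.51 (3.26e-10).

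SMG5 responded lower in CNOT1-AID cells at 24 h than in parental cells, by -1.25 (adjusted p = 4.42e-09), and than in CNOT4-AID cells, by -1.24 (4.99e-09). Between 24 h and 8 h of CNOT1 depletion it differed by -1.07 (4.12e-07). SMG9 behaved alike in direction, at -0.67 against parental (0.000248, lost with ERCC scaling), -0.76 against CNOT4-AID (7.32e-05) and -0.66 between the times (0.000892). Its slope differed between CNOT1-AID and CNOT4-AID cells by 0.11 (0.0294). That slope call was lost in 5 of 16 fits that left out a library and without the 12 h time, and the difference turned negative with TMM scaling.

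UPF1 responded higher at 8 h in CNOT1-AID cells, by 0.47 against parental (adjusted p = 0.000331) and 0.51 against CNOT4-AID cells (0.000140), and differed by -0.38 between the times (0.00307). For UPF2 the difference from parental at 8 h was 0.61 (0.0169, lost in 1 of 8 fits that left out a library) and that between times -0.58 (0.0318, lost in 6 of 8). Its difference of slopes between the depleted lines was 0.079 (0.0398, lost in 8 of 16). For SMG6 the difference from parental at 8 h was 0.36 (0.0316, likewise lost in 6 of 8) and that of slopes between the depleted lines 0.10 (0.0111, lost in 1 of 16). The slope differences of UPF2 and SMG6 were also lost without the 12 h time and turned negative with TMM scaling.

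SMG1 differed between CNOT1-AID and CNOT4-AID cells by 0.38 at 8 h (adjusted p = 0.0101) and by -0.40 at 24 h (0.00507), in opposite directions. It differed by -0.52 between the times in CNOT1-AID cells (0.00195). The 8 h difference was lost in 1 of 8 fits that left out a library, and that between the times was lost with ERCC scaling. UPF3A differed between the depleted lines by -0.49 at 24 h (0.00284) and by 0.12 in slope (0.00176), and by -0.52 between the times in CNOT1-AID cells (0.00447). UPF3B differed between the depleted lines by -0.93 at 24 h (0.00729). With ERCC scaling the 24 h differences of SMG1, UPF3A and UPF3B between the depleted lines were no longer called. The UPF3A slope difference was lost without the 12 h time.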

How the results depend on the processing

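Each group held 2 libraries and the depth behind the TPM is unknown, so that small changes could not be resolved, and in the triptolide set SMG8 came down to 20 counts. The rise of SMG8 in CNOT1-AID cells at 8 h and 24 h, its slower decay there and the fall of SMG5 at 24 h kept their direction and call under every alternative run. Many other calls depended on the scaling or on 1 library. Sign changes of values that passed in neither setting (182) are not given as reversals. The counts of members below come without the share of all genes called in the same setting. They thus show how the calls depend on the processing and cannot be set against all genes.

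With ERCC scaling these log2 values changed sign: in CNOT1-AID cells at 8 h SMG9 (0.36) and SMG5 (0.27), at 24 h UPF1 (0.35), against parental UPF3A at 8 h (0.50) and UPF1 at 24 h (0.40), and against CNOT4-AID cells SMG5 at 8 h (0.42). The members called in CNOT1-AID cells with ERCC scaling were 9 higher and 0 lower at 8 h and 3 higher at 24 h. CNOT1-AID against CNOT4-AID responses gave 7 higher at 8 h and 2 lower at 24 h, and against parental responses 2 higher and 1 lower at 24 h. UPF2 in CNOT4-AID cells at 24 h was not called, leaving 0, and the 0 h comparisons of both lines with parental had 0 higher. With no scaling, SMG5 in CNOT1-AID cells was 0.10 at 8 h and UPF1 0.23 at 24 h, and untreated CNOT4-AID cells against parental had SMG8 at -0.18 and SMG5 at -0.17. The counts were then 0 lower at 8 h and 3 higher at 24 h in CNOT1-AID cells, 0 higher in CNOT4-AID cells at 24 h, 6 higher at 8 h and 3 lower at 24 h between the depleted lines, and 7 lower in untreated CNOT4-AID cells. Median-of-ratios scaling gave 0 higher in CNOT4-AID cells at 24 h and 1 lower in CNOT1-AID against parental at 8 h. With no filter on low values 0 members were higher in CNOT4-AID cells at 24 h, and 1 was higher at 0 h of triptolide in each depleted line. A fit without robust estimation gave 0 in CNOT4-AID cells at 24 h.

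With TMM scaling of the triptolide counts, parental slopes turned for UPF1 (0.0148), UPF2 (0.0251), UPF3A (0.0344) and SMG5 (0.0471), and CNOT4-AID slopes for UPF1 (0.0130), UPF3B (0.0620), UPF3A (0.0079) and SMG5 (0.0391). CNOT1-AID minus CNOT4-AID slopes turned for UPF1 (-0.0971), SMG6 (-0.00750), SMG9 (-0.00691), UPF3B (-0.0483), UPF2 (-0.0319), SMG1 (-0.0705) and SMG5 (-0.0573). Parental slopes were then called higher for 4 and lower for 2, CNOT4-AID slopes higher for 2 and lower for 2, CNOT1-AID minus parental slopes lower for 5, and CNOT1-AID minus CNOT4-AID slopes higher for 1 and lower for 4. Without 0 h, 2 CNOT1-AID slopes and 2 differences between the depleted lines were called. Without 12 h, 2 parental slopes and 1 such difference were. DESeq2 called 2 lower for CNOT4-AID minus parental slopes.

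Leaving out 1 library at a time, the counts ranged as follows. In CNOT1-AID cells at 8 h from 4 to 7 members were higher and from 0 to 1 lower. In CNOT4-AID cells from 0 to 1 were lower at 8 h and from 0 to 2 higher at 24 h. CNOT1-AID responses at 8 h were higher for 2 to 6 against parental and 2 to 5 against CNOT4-AID cells. Untreated CNOT1-AID cells had 0 to 2 lower, and untreated CNOT4-AID cells 0 to 1 higher. At 0 h of triptolide CNOT1-AID cells had 0 to 2 higher and 0 to 3 lower, and CNOT4-AID cells 2 to 4 higher and 0 to 1 lower, with UPF1 in CNOT4-AID cells between -0.39 without parental 0 h replicate 2 and 0.26 without replicate 1. Slopes were called lower for 2 to 5 in parental cells, 3 to 4 in CNOT1-AID cells, 8 to 9 in CNOT4-AID cells and for 0 to 9 in CNOT4-AID minus parental, and higher for 2 to 8 between the depleted lines.

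The replicate numbers as given did not mark consistent pairs of libraries. Same-numbered deviations correlated by -0.20 to 0.10 in the steady-state set and by -0.54 to 0.25 in the triptolide set. Whether libraries were paired under other numbers cannot be told from these values, so that independence of the libraries is not established. With the replicate block UPF2 in CNOT4-AID cells at 24 h (adjusted p = 0.0590), the parental UPF1 slope (0.0541) and the CNOT1-AID UPF2 slope (0.0508) were no longer called, so that 0 members were higher in CNOT4-AID cells at 24 h, and it changed no other call of a member. A block with crossed numbers, chosen after seeing the data, left 5 higher and 1 lower in CNOT1-AID cells at 8 h, and 2 higher in each depleted line at 0 h of triptolide.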
